A study of Mus musculus with 17 samples.

Results

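The genes described here are the D cyclins Ccnd1, Ccnd2 and Ccnd3, the kinases Cdk4 and Cdk6 that they activate, and the CDK inhibitors Cdkn1b, Cdkn1c, Cdkn2a and Cdkn2c. They were chosen by name, with earlier results of these data known. Every probe set whose only gene symbol in the platform's annotation was among these 9 was taken, whatever its values. This gave 24 probe sets, of 34945 with 1 symbol that stood for 18193 genes, and of 45037 tested in all. Ccnd2 had 7 probe sets, Ccnd1, Ccnd3, Cdk4 and Cdk6 had 3 each, Cdkn1b had 2, and Cdkn1c, Cdkn2a and Cdkn2c had 1 each. No filter on level was set, so all 24 were tested, and a gene with several was represented by the probe set with the highest mean over the 17 arrays.

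The study asked how gene expression in isolated mouse islets changes during the first 48 h after isolation. Pancreatic islets of C57BL/6 mice were isolated in 6 batches, each a pool from 4 animals, and each batch was split into portions harvested at 0, 24 and 48 h. All portions were kept in F12K medium with fetal bovine serum and had no treatment, and sex, age and genotype beyond the strain were not given in the sources used here. Each portion gave 1 array, which made 5 arrays at 0 h, 6 at 24 h and 6 at 48 h; for batch 5 a 0 h array was not used here. The islet label was checked on hormone genes: Ins2, which encodes insulin, averaged 13.76 at 0 h, 13.73 at 24 h and 13.69 at 48 h on the log2 scale, in a table whose highest value was 13.81. Gcg, which encodes glucagon, averaged 12.82, 12.77 and 12.66 at these times.

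D cyclins bind CDK4 and CDK6 in the G1 phase of the cell cycle, and the active kinases phosphorylate RB, which frees E2F factors to switch on genes of DNA replication. Inhibitors of the INK4 family, to which Cdkn2a and Cdkn2c belong, bind CDK4 and CDK6 directly, whereas those of the CIP/KIP family, to which Cdkn1b and Cdkn1c belong, bind cyclin and kinase together and block CDK2 as well. In mice, cyclin D2 and CDK4 are known for their part in the growth of beta cell mass after birth, and Cdkn1c is an imprinted gene expressed from the maternal copy.

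Values are the authors' RMA levels on the log2 scale, so that a difference of -1 is a halving. RMA subtracts background, scales the arrays to a common distribution and merges the probes of a set, which narrows differences of weak signals. No detection call came with the values used here, so that levels close to 3.52, the median of the whole table, could not be told from background. The threshold for passing was an adjusted p under 0.05 in limma, with Benjamini-Hochberg adjustment over all 45037 probe sets, and errors of differences are limma's standard errors (SE).

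Of the genes that passed, RefSeq promoter windows were at hand for Cdkn2c, which had a pair of annotated starts. Its windows, the 250 bases before each start, are shown for that reason, on the minus strand of GRCm38.p6 and written 5′ to 3′, with capitals on the GC box letters GGGCGG or their reverse complement.
Cdkn2c, chr4:109666757-109667006: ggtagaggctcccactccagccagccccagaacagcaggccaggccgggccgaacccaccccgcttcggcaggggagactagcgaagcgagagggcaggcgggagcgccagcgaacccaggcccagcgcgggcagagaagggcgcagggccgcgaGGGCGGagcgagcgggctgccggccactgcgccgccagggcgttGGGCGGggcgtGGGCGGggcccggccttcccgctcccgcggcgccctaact
Cdkn2c, chr4:109665373-109665622: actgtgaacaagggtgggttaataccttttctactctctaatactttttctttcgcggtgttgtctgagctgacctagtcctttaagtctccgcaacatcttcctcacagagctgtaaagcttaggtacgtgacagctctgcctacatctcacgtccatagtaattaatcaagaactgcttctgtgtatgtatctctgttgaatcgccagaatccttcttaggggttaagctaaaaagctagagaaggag

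The first of these windows held 3 GC boxes and was 77.2% G and C, and the other held 0 GC boxes and was 42.8% G and C. Over both strands, a GC box stood in 32.7% of the 32851 windows of the RefSeq table. The E2F words TTTCCCGC, TTTCGCGC, TTTGCCGC and TTTGGCGC, searched on both strands, stood in 1.86% of all windows and in neither of the Cdkn2c windows. No GC box overlapped an E2F word in the members' windows. Windows were found for 6 of the 9 genes, 9 windows in all. Ccnd1, Ccnd2 and Cdkn1c were not in the table.

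Within 48 h of culture the islets lost part of their Ccnd2 signal, and the signals of Cdkn1c and Cdkn2c were lower by 48 h. Cdkn1c was read close to background, and the Cdkn2c call was lost in 7 of 17 fits that each left out 1 array. None of the 9 genes rose. At 24 h against 0 h, 1 of the 9 genes fell (Ccnd2) and 0 rose, where 6.66% of all 18193 genes fell and 5.44% rose. Counted over probe sets, 6 of 24 fell and 0 rose, against a background of 4.72% falling and 3.86% rising among all probe sets. All but 1 of these 6 were sets of Ccnd2, and the other was a Ccnd3 set, so 1 gene was counted several times. Only 3 of the 9 genes had an unadjusted p under 0.05 in limma at 24 h, all of them lower than at 0 h. The share of all genes under that unadjusted threshold was not counted, so these 3 have no background to be set against. The median difference of the 9 genes was -0.11, beside -0.01 over all genes.

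At 48 h against 0 h, 3 of the 9 genes fell (Ccnd2, Cdkn1c and Cdkn2c) and 0 rose, where 5.27% of all genes fell and 6.45% rose. Over probe sets the count was 8 of 24 falling and 0 rising, where 3.8% of all probe sets fell and 4.67% rose. Most of these 8 were again sets of Ccnd2, and the others were of Ccnd3, Cdkn1c and Cdkn2c. At an unadjusted p under 0.05 there were 4 genes, all lower, again without a share over all genes to set beside them. The median of the 9 genes was -0.00031 and that of all genes -0.02. Both comparisons share the 0 h arrays.

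Between 48 h and 24 h, 0 of 9 genes and 0 of 24 probe sets passed in limma. Of all genes, 0.429% rose and 0.33% fell. Of all 45037 probe sets 200 passed, and 80 of these, 0.178% of all, fell while the others rose. At an unadjusted p under 0.05 the counts among the members were 0 genes and 1 probe set, here too without a share over all genes or sets. The 1 probe set was Ccnd2 1434745_at, named here after its values were seen, at 0.16 ± 0.05 (SE) with an adjusted p of 0.223. The median of the 9 genes was 0.06, beside -0.00189 over all genes.

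**Figure D1:**
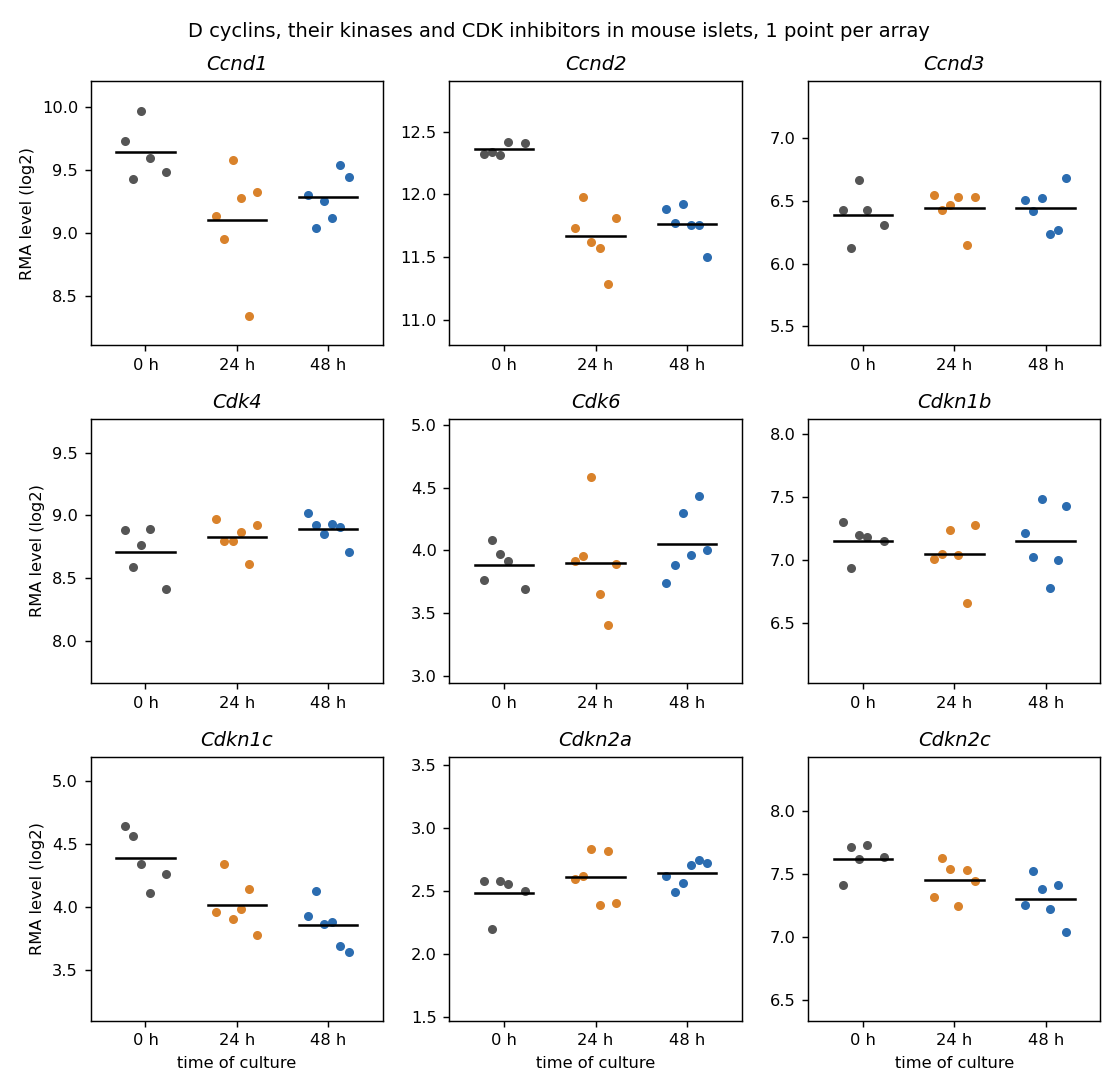
RMA level (log2, vertical axes, each with its own range) of the 9 genes by time of culture, with 1 point per array (5 at 0 h, 6 at 24 h and 6 at 48 h) and a bar at the mean. The Ccnd2 points at 24 and 48 h all lie below the lowest 0 h point, while the Ccnd3, Cdk4 and Cdkn1b points of the 3 times overlap.

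Ccnd2, which encodes cyclin D2, was the only D cyclin whose representative probe set passed. That set, 1455956_x_at, read 12.32, 12.34, 12.32, 12.42 and 12.41 at 0 h. At 24 h it ran between 11.29 and 11.98 with a median of 11.68, and at 48 h between 11.51 and 11.93 with a median of 11.77. The arrays of both later times were thus all below those of 0 h, without overlap. The 24 h mean was 11.67 ± 0.24 (SD, n = 6), against 12.36 ± 0.05 (SD, n = 5) at 0 h, a difference of -0.69 ± 0.10 (SE; adjusted p = 0.000128, limma). On the linear scale the signal fell by 38.1% (ratio 0.619). The 48 h mean was 11.77 ± 0.15 (SD, n = 6), a difference from 0 h of -0.59 ± 0.10 (SE; adjusted p = 0.000751, limma), and the signal fell by 33.7%. Levels at 24 and 48 h did not differ beyond their spread (0.10 ± 0.10, SE; 95% interval -0.10 to 0.30; adjusted p = 0.746). Ccnd2 was lower in 5 of 5 batches at 24 h, with differences of -0.84 to -0.35. At 48 h it was lower in 5 of 5, with differences of -0.90 to -0.39. These counts follow from the lack of overlap, whatever the pairing of arrays.

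The 7 probe sets of Ccnd2 were all lower on average at both later times, with unlike precision. At 24 h their differences from 0 h lay between -0.69 and -0.50, and at 48 h between -0.65 and -0.34. Of the 7, 5 passed at 24 h and 5 at 48 h. The smallest adjusted p was that of 1434745_at at 24 h, whose arrays read 11.47 to 11.67 at 24 h, against 11.99 to 12.07 at 0 h, a difference of -0.50 ± 0.06 (SE; adjusted p = 6.8e-06). 1416122_at differed from 0 h by -0.61 at 24 h and -0.52 at 48 h, and 1430127_a_at by -0.65 and -0.63. The level of 1416124_at was near the table's median at the later times, with 3 of 6 arrays at 24 h and 1 of 6 at 48 h under it. Its differences from 0 h, -0.63 and -0.57, rest on levels not separated from background.

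The probe sets 1448229_s_at and 1416123_at did not pass at either time, with differences of -0.62 and -0.60 at 24 h (adjusted p = 0.11 and 0.253) and of -0.64 and -0.65 at 48 h (0.095 and 0.196). Their standard errors, 0.23 and 0.29, were above those of the other 5 sets, which ran from 0.06 to 0.11. At 0 h, 1416123_at read 9.03 and 9.11 in replicates 1 and 2 and 7.94, 8.20 and 8.12 in the others, and at 48 h replicate 3 read 8.93, where the other 5 arrays read 7.37 to 8.20. These arrays did not stand apart in the representative set. As a description over the 17 arrays, the deviations of these sets from their time means had a Pearson correlation of 0.978 with each other, and of 0.21 to 0.33 with those of the representative.

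**Figure D2:**
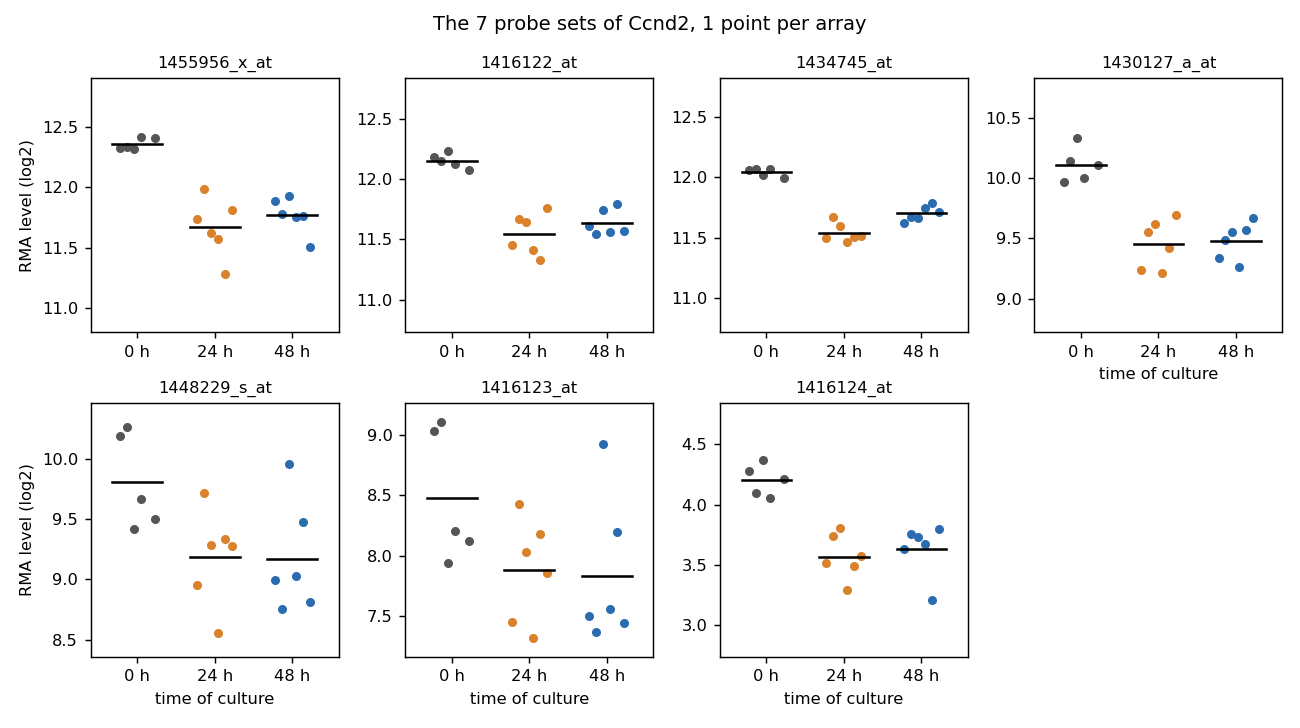
RMA level (log2, vertical axes, each with its own range) of the 7 Ccnd2 probe sets by time of culture, with 1 point per array and a bar at the mean. In 5 sets every array at 24 and 48 h lies below every array at 0 h, and in 1448229_s_at and 1416123_at the times overlap.

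Ccnd1, which encodes cyclin D1, was lower on average at both later times but did not pass. Its representative, 1448698_at, read 9.73, 9.43, 9.97, 9.59 and 9.49 at 0 h, ran from 8.34 to 9.58 (median 9.20) at 24 h, and from 9.04 to 9.54 (median 9.28) at 48 h. The lowest array, at 8.34, was replicate 5 at 24 h, and both later times overlapped with 0 h. The difference was -0.54 ± 0.17 (SE; adjusted p = 0.0503) at 24 h and -0.36 ± 0.17 (adjusted p = 0.22) at 48 h, and Ccnd1 was lower in 5 of 5 batches at each time. With the batch as a fixed block the 24 h difference was -0.49 with an adjusted p of 0.0835, which does not pass, and with a random block it was -0.54 with an adjusted p of 0.0482, which passes. It passed in 5 of 12 alternative settings. At 48 h it passed when only batches with all 3 times were fitted (-0.41, adjusted p = 0.047). The other Ccnd1 sets did not pass, at -0.42 and -0.36 for 24 h and -0.12 and -0.42 for 48 h.

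Ccnd3, which encodes cyclin D3, gave conflicting readings between its probe sets. The representative 1415907_at averaged 6.39 at 0 h (SD 0.20, n = 5), 6.44 at 24 h (SD 0.15, n = 6) and 6.44 at 48 h (SD 0.17, n = 6). Its difference from 0 h was 0.05 at 24 h (95% interval -0.16 to 0.27; adjusted p = 0.85) and 0.05 at 48 h (-0.16 to 0.26; adjusted p = 0.842). The set 1444323_at differed by 0.04 at each time and did not pass. The set 1438805_at read 4.05, 4.47, 4.11, 4.56 and 4.16 at 0 h, 3.54 to 3.97 at 24 h and 3.52 to 4.03 at 48 h, without overlap between 0 h and either later time. It fell by 0.48 ± 0.11 (SE; adjusted p = 0.00701) at 24 h and by 0.49 ± 0.11 (adjusted p = 0.007) at 48 h, at levels close to the table's median.

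Whether D cyclins changed unequally was tested on the difference of their representatives within each array, between times. The tests were exact two-sided permutation tests adjusted over 9 tests. They shuffled arrays freely between the times compared and did not use the pairing by batch. Ccnd2 minus Ccnd3 averaged 5.23 ± 0.18 (SD, n = 6) at 24 h, against 5.97 ± 0.22 (SD, n = 5) at 0 h. This shift of -0.75 had an exact p of 0.00216, the smallest that these group sizes allow, and an adjusted p of 0.00974. At 48 h the shift was -0.64 with the same exact p and adjusted p. Ccnd1 minus Ccnd3 shifted by -0.59 at 24 h (exact p = 0.00433, adjusted p = 0.013) and by -0.41 at 48 h (exact p = 0.00866, adjusted p = 0.0195). The Ccnd1 and Ccnd3 results depended on the choice of probe set: with the mean of all sets of each gene the shifts were -0.31 (adjusted p = 0.0731) and -0.17 (adjusted p = 0.417). With that mean, Ccnd2 minus Ccnd3 shifted by -0.49 at 24 h and -0.43 at 48 h, smaller than with the representatives, and each still passed (adjusted p = 0.039). The 48 h shift of Ccnd1 minus Ccnd3 also missed the threshold in 10 of 17 fits that each left out 1 array. Among them were each of the 5 without a 0 h array and those without 48 h replicates 1, 2, 3, 4 and 6. Over the 17 fits this shift ran from -0.50 to -0.36, and the highest adjusted p was 0.075. Leaving out a 0 or 48 h array also raises the smallest p that the group sizes allow. Ccnd1 minus Ccnd2 shifted by 0.15 at 24 h (adjusted p = 0.524) and by 0.23 at 48 h (0.316), and no pair passed between 48 and 24 h.

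Cdk4, the kinase partner of the D cyclins in beta cells, did not pass at either time. Its representative 1422441_x_at read 8.88, 8.59, 8.77, 8.89 and 8.42 at 0 h, 8.61 to 8.97 (median 8.83) at 24 h and 8.71 to 9.02 (median 8.92) at 48 h, with overlap throughout. The difference was 0.12 ± 0.09 (SE; adjusted p = 0.533) at 24 h and 0.18 ± 0.09 (adjusted p = 0.259) at 48 h, with a 95% interval of -0.01 to 0.37 at 48 h. It was higher in 4 of 5 batches at 24 h and in 5 of 5 at 48 h. The other Cdk4 sets ran the same way, at 0.06 and 0.14 for 24 h and 0.15 and 0.26 for 48 h, and the lowest adjusted p among the 3 sets was 0.0989.

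Cdk6, the other kinase activated by D cyclins, was read close to background. The representative 1455287_at averaged 3.88 at 0 h, 3.90 at 24 h and 4.05 at 48 h, and the widest time was 24 h, with 3.41 to 4.58. Its differences from 0 h were 0.02 (adjusted p = 0.972) and 0.17 (adjusted p = 0.622). The sets 1460291_at and 1435338_at were under the table's median on all 17 arrays.

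Cdkn1b, which encodes p27, overlapped between all times. 1434045_at read 7.30, 6.93, 7.20, 7.18 and 7.15 at 0 h, 6.66 to 7.27 (median 7.04) at 24 h and 6.77 to 7.48 (median 7.12) at 48 h. Its difference from 0 h was -0.11 at 24 h (95% interval -0.37 to 0.15; adjusted p = 0.719) and -0.00031 at 48 h (-0.26 to 0.26; adjusted p = 1). The second set, 1419497_at, was under the table's median on 15 of 17 arrays. p27 is known to be controlled largely through its protein's stability, which arrays do not measure.

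Cdkn1c, which encodes p57, had 1 probe set, 1417649_at. It read 4.65, 4.57, 4.34, 4.11 and 4.26 at 0 h, 3.78 to 4.34 (median 3.97) at 24 h and 3.64 to 4.12 (median 3.87) at 48 h. The 48 h arrays were low, and 1 of them, at 4.12, lay just above the lowest 0 h array. The difference at 48 h was -0.53 ± 0.11 (SE; adjusted p = 0.00528), a signal that fell by 30.7%, and it was lower in 5 of 5 batches. At 24 h the difference was -0.37 ± 0.11 (adjusted p = 0.0511), which did not pass. With the batch as a fixed block it was -0.36 with an adjusted p of 0.0198, which passes, and with a random block the adjusted p was 0.0463. Cdkn1c was lower at 48 h than at 24 h in 6 of 6 batches (-0.45 to -0.03), with a mean difference of -0.16 ± 0.11 (adjusted p = 0.605). Its levels lay close to the table's median, where they could not be told from background and where RMA narrows differences.

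Cdkn2c, which encodes the INK4 inhibitor p18, fell at 48 h and did not pass at 24 h. Its probe set 1416868_at read 7.41, 7.72, 7.62, 7.73 and 7.64 at 0 h, 7.25 to 7.63 (median 7.49) at 24 h and 7.04 to 7.53 (median 7.32) at 48 h. All but 1 of the 0 h arrays were above every 48 h array. The difference was -0.17 ± 0.09 (SE; adjusted p = 0.324) at 24 h and -0.32 ± 0.09 (adjusted p = 0.0364) at 48 h, where the signal fell by 19.8%. It was lower in 5 of 5 batches at each time, and lower at 48 h than at 24 h in 6 of 6 batches (-0.15, adjusted p = 0.554). The 48 h call was close to the threshold: it was lost in 7 of 17 fits that each left out 1 array, with adjusted p up to 0.0971, namely without 0 h replicates 2, 3, 4 or 6 and without 48 h replicates 1, 4 or 6.

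Cdkn2a, which encodes p16 and, from another reading frame, ARF, was under the table's median on all 17 arrays. It averaged 2.48 at 0 h, 2.61 at 24 h and 2.64 at 48 h, and its signal was not separated from background at any time.

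**Figure D3:**
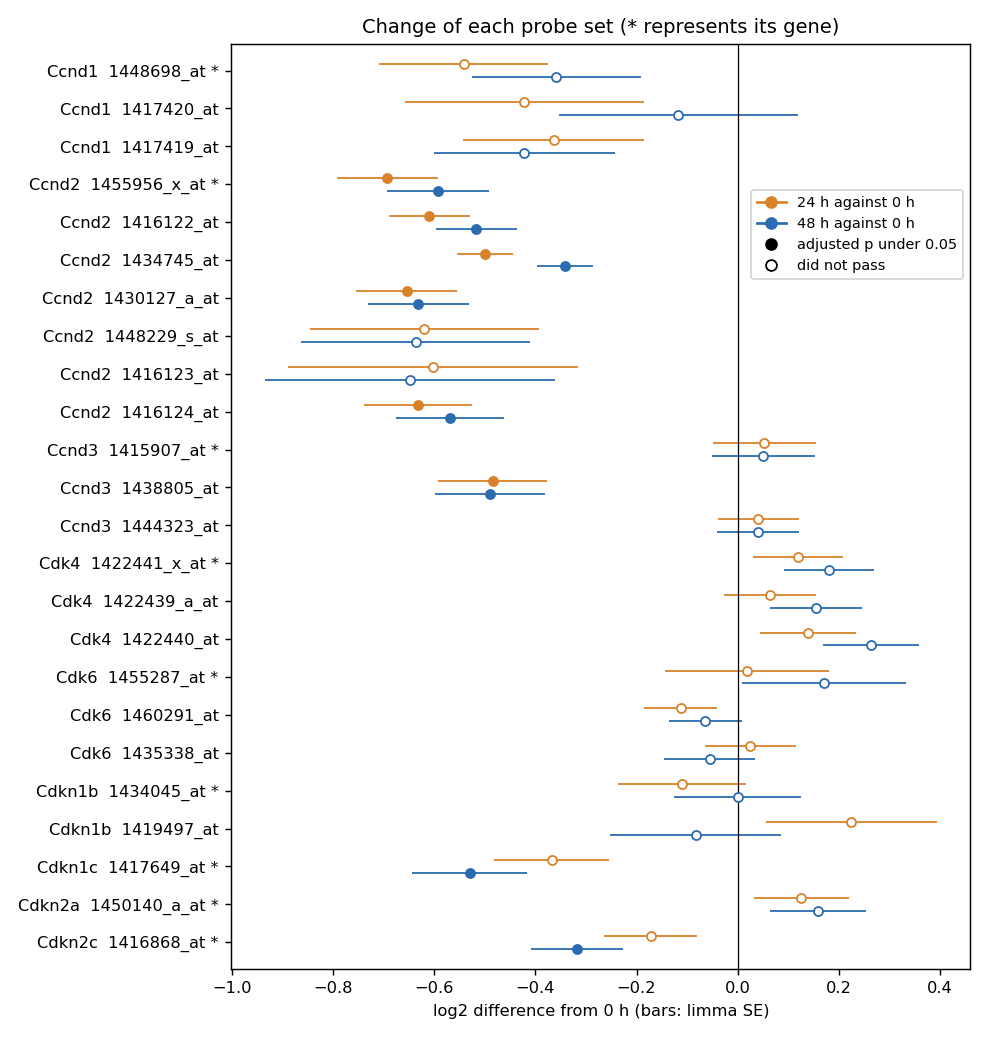
Difference from 0 h (log2, horizontal axis) of all 24 probe sets at 24 h and 48 h, with bars of 1 limma SE on each side, filled where the adjusted p was under 0.05. An asterisk marks the set that represents its gene. All filled points lie left of 0, and they belong to Ccnd2, 1 set of Ccnd3, Cdkn1c and Cdkn2c.

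Among genes of the same pathway, the largest changes were in other members than the D cyclins. As a background for the lists, 6.66% of all genes fell and 5.44% rose at 24 h. At 48 h, 5.27% of all genes fell and 6.45% rose. Of 3 other CDK inhibitors, 1 rose at 24 h and 1 at 48 h, with a list median of 0.30 and 0.21. This was Cdkn1a, which encodes p21, a known p53 target: it averaged 8.96 ± 0.23 (SD, n = 6) at 24 h, against 7.19 ± 0.35 (SD, n = 5) at 0 h, a difference of 1.76 ± 0.14 (SE; adjusted p = 2.31e-07), and at 48 h it differed from 0 h by 1.30 ± 0.14 (adjusted p = 1.05e-05). The INK4 genes Cdkn2b and Cdkn2d did not pass, at 0.30 (adjusted p = 0.0937) and 0.02 for 24 h. Of 14 measured E2F target genes, 6 fell at 24 h and 5 at 48 h, and 0 rose, with list medians of -0.40 and -0.35 beside -0.01 and -0.02 over all genes. Mki67, a mark of cycling cells, differed by -2.10 ± 0.28 (SE; adjusted p = 5.45e-05) at 24 h and by -2.13 at 48 h, Rrm2, a subunit of ribonucleotide reductase, by -2.05 and -1.52, and the topoisomerase Top2a by -1.84 and -1.78. Cdt1, which licenses replication origins, fell by 0.86 at 24 h and was at -0.51 for 48 h (adjusted p = 0.119), which did not pass. The helicase subunit Mcm2 fell by 0.49 at 24 h and by 0.58 at 48 h.

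At 24 and 48 h, the 12 measured cyclins E, A and B and their kinases had medians of -0.18 and -0.12. Over all genes the medians were -0.01 and -0.02. Of the 12, 3 fell at 24 h, 3 fell at 48 h and 0 rose. They included Cdk1, the mitotic kinase, at -1.43 ± 0.18 (SE; adjusted p = 3.71e-05) for 24 h and -1.61 for 48 h, and Ccna2, which encodes cyclin A2, at -1.32 and -1.16. Cdk1, Ccna2, Rrm2 and Top2a averaged 3.16 to 3.90 at the later times, near the table's median, and were not separated from background there. Ccnb2, which fell as well, was under the table's median on average. Of 13 RB and E2F genes, 1 rose and 1 fell at 24 h (E2f3 at 0.35, adjusted p = 0.0445; the E2F partner Tfdp2 at -0.36, adjusted p = 0.0137), and 0 passed at 48 h. Of 19 measured regulators of D cyclins, p27 and INK4 genes, 1 rose at each time and 0 fell. This was Fbxo4, an F-box protein reported to mark cyclin D1 for degradation, at 0.44 (adjusted p = 0.0127) and 0.60 (adjusted p = 0.00133).

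**Figure D4:**
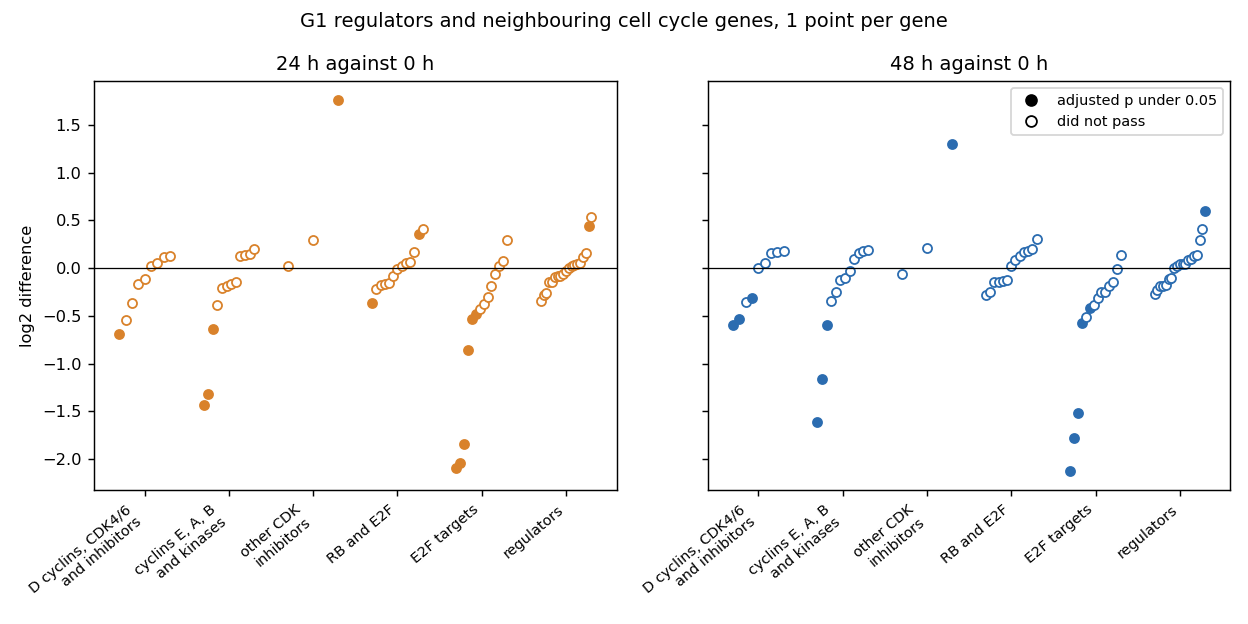
Log2 difference from 0 h (vertical axis) at 24 h (left) and 48 h (right), with 1 point per gene, for the 9 genes and 5 lists of neighbouring cell cycle genes, filled where the adjusted p was under 0.05. The filled point above 1 is Cdkn1a, and the lowest filled points are Cdk1 and Ccna2 and the E2F targets Mki67, Rrm2 and Top2a.

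Genes whose levels ran most like those of the members that passed were sought among 11915 genes above the table's median, by Pearson correlation over the 17 arrays, given as a description in arrays that share the time course. Ccnd2 ran most like Zmpste24 (0.959) and Zdhhc14 (0.952), Cdkn1c like Zfp467 (0.871) and Tbc1d2b (0.846), and Cdkn2c like Klf9 (0.861) and Tprgl (0.818).

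In whole islets, fewer cells of a type and less RNA per cell cannot be told apart. Marker genes of several cell types moved over the same hours as the falls above. Of 6 measured beta cell markers, 5 fell at 24 h and 4 at 48 h, and their mean level per array was 10.63 to 10.75 at 0 h, 10.05 to 10.37 at 24 h and 10.33 to 10.48 at 48 h, with all 6 above the table's median on average. Of 8 endothelial markers, 4 fell at 24 h and 6 at 48 h, with means of 5.67 to 5.98 at 0 h, 5.03 to 5.14 at 24 h and 4.42 to 4.88 at 48 h, and Pecam1, Cdh5 and Tie1 were under the table's median on average. Of 8 macrophage markers, 5 fell and 1 rose at 24 h, and 2 fell and 2 rose at 48 h (means 5.20 to 5.56, 4.70 to 5.13 and 5.18 to 5.53 at 0, 24 and 48 h). Of 8 fibroblast and stellate cell markers, 3 fell at 24 h and 3 rose at 48 h (means 4.29 to 4.67, 3.90 to 4.09 and 4.50 to 4.85), and of 7 acinar markers, 0 passed at 24 h and 4 fell at 48 h (means 4.70 to 7.55, 3.59 to 6.46 and 3.21 to 4.85). Of 3 alpha and delta cell markers, 2 fell at 24 h and 1 at 48 h. Of 5 duct markers 1 rose at each time, which was Krt7, while Sox9 and Cftr were under the table's median on average. Of 5 lymphocyte markers 0 passed at 24 h and 1 fell at 48 h. This was Cd79b, which averaged 2.61 at 0 h and 2.36 at 48 h, under the table's median. Col1a1, 1 of the fibroblast and stellate risers, was also under it on average. Over all genes, 6.66% fell and 5.44% rose at 24 h, and 5.27% fell and 6.45% rose at 48 h. The part of these shifts in the changes of Ccnd2, Cdkn1c and Cdkn2c was not tested. Array medians lay between 3.47 and 3.57 and pairwise correlations of arrays between 0.976 and 0.995. Replicate 3 at 0 h and replicate 5 at 24 h correlated least with the arrays of their own time. Without both of them, Ccnd2 at both times and Cdkn1c at 48 h still passed, and Cdkn2c at 48 h was at -0.32 with an adjusted p of 0.0675.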

How the data were processed

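Islet RNA was measured on 17 single-colour Affymetrix Mouse Genome 430 2.0 arrays. Per the submitters' processing notes, the authors used RMA, whose version was not given in the sources used here. The deposited values were taken as log2 from their range (1.55 to 13.81). Of 45101 probe sets, 64 controls were left out. The platform annotation gave 34945 probe sets 1 symbol, 932 several and 9160 none.

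limma 3.58.1 in R 4.3.3 fitted 1 mean per time to all 17 arrays (lmFit, eBayes), tested on simulated data first. D cyclins were compared by exact permutation tests over arrays, without the batch. All members were named, and from each list up to 4 passing genes above the median level by size of difference. Members and lists were chosen with earlier results of these data known. Alternatives were batch blocks, array weights, a variance trend, other scalings, filters, summaries and subsets, and leaving out each array. Background correction of scanner files was not rerun.

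The batches, pools of islets split over the times per the study's design text, pair the arrays. The batch of each array was taken to be its replicate number. The deviations of 16 same-batch pairs correlated at a median of 0.00545 (-0.159 to 0.274), and those of 80 other pairs at -0.00978. Promoter windows are RefSeq's, and figures were drawn with matplotlib 3.10.9.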

Additional observations from a re-analysis of the deposited data

Results flagged for a closer look

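Each of the 9 genes was examined at each of the 3 times for an array far from the others of its time, 27 groups in all, of which 2 stood out where chance gives about 1 in 20. Ccnd3 read 6.15 in replicate 5 at 24 h, where the other 5 arrays of that time read 6.42 to 6.54, a gap of 0.702 of the whole range. By the representative sets, the same array had the lowest Ccnd1 (8.34), Ccnd2 (11.29), Cdk4 (8.61), Cdk6 (3.41) and Cdkn1b (6.66) levels of its time. It was not the lowest in the Ccnd2 set 1434745_at, where it read 11.51 and replicate 4 read 11.47. Cdkn2a read 2.20 in replicate 2 at 0 h, where the others read 2.50 to 2.58, a gap of 0.783 of the range, and all these values lie under the table's median.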

How the results depend on the processing

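Ccnd2 at 24 and 48 h and Cdkn1c at 48 h passed, with the same sign, in the 17 fits that left out 1 array and in all 12 other settings. Of the 9 genes, 1 passed at 24 h. Under other settings 2 passed (fixed replicate block, quantile normalization again, array weights, variance trend) or 3 (random replicate block, only probe sets above the table's median, mean of all sets of a gene), and 1 to 2 when an array was left out. The genes gained were Ccnd1 (-0.64 to -0.39 over arrays left out, adjusted p 0.0191 to 0.13; passed without 24 h replicate 3 or 6) and Cdkn1c (-0.44 to -0.30, 0.0191 to 0.144; passed without 0 h replicate 4, 24 h replicate 2, or 48 h replicate 2 or 6). The replicate block changed no other call. At 48 h, 2 to 4 of 9 passed, and Cdkn2c was lost with arrays centred on their median (-0.28, adjusted p = 0.067), with only the arrays of both times (0.0524) and with a variance trend (0.0564). Between 48 and 24 h, 0 passed in every setting. Over all probe sets, 3862 passed at 24 h and 3815 at 48 h against 0 h, and the mean of sets gave 2202 and 2235 of the 18193 genes, which are fewer features. Between 48 and 24 h 200 passed, 321 with array weights, 324 without 0 h replicate 3 and 24 h replicate 5, 131 without 24 h replicate 2 and 102 without 48 h replicate 2; the cause was not tested. With the mean of sets, Ccnd3 was at -0.13 for 24 h and -0.13 for 48 h, and Cdkn1b at 0.057 for 24 h against 0 h and -0.10 for 48 h against 24 h. With only complete batches, Ccnd1 and Cdk6 were at -0.020 and -0.022 for 48 h against 24 h. None of these passed. In all, 747 of 780 values kept their sign, and 33 changed it without passing in either fit. With the mean of sets, the D cyclin pairs gave 0.26 for Ccnd1 minus Ccnd2 at 48 h (adjusted p = 0.039), -0.31 for Ccnd1 minus Ccnd3 at 24 h and -0.17 at 48 h; over arrays left out the last ran from -0.50 to -0.36. Other scalings moved the median of all probe sets by at most 0.04. The number of arrays per time, and background for levels near the table's median, limit what can be seen.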

Other observations

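The Ccnd2 probe sets that did not pass, 1416123_at and 1448229_s_at, shared their array-to-array spread with many other genes, a pattern looked for after their values were seen. Deviations from the time means were correlated over 17 arrays with those of 22480 probe sets, as a description. With each other, these Ccnd2 sets correlated at 0.978. For 1416123_at, 121 sets had a correlation above 0.9, led outside Ccnd2 by Gbf1 (0.978), Cldnd1 (0.965) and G3bp2 (0.959). For 1448229_s_at there were 104, led outside Ccnd2 by Gbf1 (0.974), Pja2 (0.962) and St18 (0.959). The representative of Ccnd2, 1455956_x_at, had 4 such sets, and the other 4 Ccnd2 sets had 0.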
